A study of Homo sapiens with 9 samples.

Results

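The promoters described here belong to the machinery that brings proteins and metabolites into mitochondria. They are the YY1 binding sites (peaks) no farther than 2 kb from a TSS (transcription start site) whose gene symbol starts with TIMM, TOMM, GRPEL or SLC25A followed by a digit. Of 23002 peaks and 15384 promoter peaks, 63 met this rule, 20 at translocase genes (TIMM, TOMM and GRPEL) and 43 at carrier genes (SLC25A). The line profiled for YY1 by ChIP-seq was SK-N-MC, human tumour cells labelled as neuroblastoma and known to carry the EWSR1-FLI1 fusion of Ewing tumours. The cells were transfected with plasmids that overexpressed huntingtin (Htt) residues 1 to 550, whose glutamine tract is expanded in Huntington's disease, with 23 glutamines (HttQ23, unexpanded) or 89 glutamines (HttQ89, expanded). Each group had 3 libraries labelled as biological replicates of cells with a wild-type genotype, and both groups carried a transfected Htt fragment. The study describes these fragments as fused to EGFP, no selection or sorting of transfected cells is stated in the sources used here, and binding data hold no expression values against which the cell label could be checked.

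Nearly all mitochondrial proteins are made in the cytosol. The TOM complex forms the entry pore of the outer membrane, the TIM23 complex passes proteins with a presequence into the matrix, and the TIM22 complex inserts multi-pass proteins into the inner membrane with the help of small TIM chaperones of the intermembrane space. The SLC25A carriers are among the proteins that travel through TOM and TIM22, and once inserted they exchange nucleotides, phosphate, amino acids, carboxylates and cofactors across the inner membrane. YY1 is a zinc finger factor known for sites near the start of housekeeping genes, often within the first transcribed bases.

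The values are read counts per peak that the authors normalised to sequencing depth. Reads inside the peaks, recovered as whole numbers from these values, numbered between 927910 and 2344649 per library. These are not library sizes, and relative sequencing depth lay between 0.924 and 1.12. The member peaks were all 401 bp wide, so width does not enter the ranking of their levels. No correction for input, copy number or base composition was made here. The TSS lay inside the peak at 87.3% of members, against 72.8% of all promoter peaks. The peaks covered 18 of 28 protein-coding translocase genes and 38 of 48 carrier genes of GENCODE v44, and the remaining family genes are not analysed here. The other 2 symbols were TOMM22-DT, a non-coding transcript that starts back to back with TOMM22, a receptor of the TOM complex, and the pseudogene SLC25A3P1. The gene assignment was ambiguous at 2 further peaks. A peak listed under SLC25A10 (chr17:81703231-81703631) had its centre in an exon of MRPL12 and was assigned through a read-through transcript, and a weak peak listed under SLC25A29 (chr14:100292285-100292685) was assigned through a transcript with an identifier of its own. The peak of SLC25A22 (chr11:798082-798482) was centred in the oppositely oriented gene PANO1. At 9 member peaks (14.3%, against 13.1% of all promoter peaks) a protein-coding gene started on the opposite strand within 1000 bp of the TSS. These were 5 of 20 translocase peaks (25.0%) and 4 of 43 carrier peaks (9.30%). They included TIMM29 (YIPF2), TOMM70 (LNP1), TIMM9 (KIAA0586), SLC25A27 (CYP39A1), SLC25A25 (NAIF1) and SLC25A32 (DCAF13). The TOMM6 peak was also centred in an exon of the gene ENSG00000124593. Signal at such peaks cannot be assigned to a single gene. The member farthest from its TSS was a GRPEL2 peak at 1035 bp, and the nearest family peak beyond 2 kb was at SLC25A42, 4435 bp away, with a mean count of 26.3. Outside the promoter window there were 13 family peaks.

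The strongest translocase promoters carried the YY1 core motif at the start of the protein. The letters ATGGCG were searched in the GRCh38 bases of each peak, on either strand. The core was present in 9 of 20 translocase peaks (45.0%) and 13 of 43 carrier peaks (30.2%), against 27.0% of the 15383 promoter peaks of this width. The 95% exact Clopper-Pearson intervals were 23.1% to 68.5% for translocases and 17.2% to 46.1% for carriers. Both intervals included the 27.0% of all promoter peaks, so an enrichment of the core in either family was not shown. In 5 translocase peaks (25.0%) the ATG of a core was an annotated start codon, against 4 carrier peaks (9.30%) and 7.18% of all promoter peaks. The family shares rest on few peaks, and their difference from all promoter peaks was not tested. The sequences below show this start-codon core in the 3 strongest translocase peaks and in GRPEL1 and TIMM8B, each read on the gene's own strand with the core in capitals.
TIMM50 (chr19:39480842-39480871, plus strand): cgtcagcgcaagATGGCGgcctcggcagcg
TIMM44 (chr19:7943634-7943663, minus strand): cgattctccaacATGGCGgcggcggccctg
TIMM22 (chr17:997131-997160, plus strand): gcagcgactgtcATGGCGgcggccgccccc
GRPEL1 (chr4:7068015-7068044, minus strand): gcagtggcagtcATGGCGgctcagtgcgtg
TIMM8B (chr11:112086706-112086735, minus strand): ctgaggcgaacaATGGCGgagctgggcgaa

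The core started 16 bp downstream of the TSS in TIMM50, 15 bp in TIMM44, 14 bp in TIMM22, 23 bp in GRPEL1 and 33 bp in TIMM8B. In TIMM50, TIMM44, TIMM22 and GRPEL1 it was followed by GC. The TIMM8B peak held another core on the plus strand, 157 bp upstream of the TIMM8B TSS, whose ATG was also an annotated start codon. SDHD, a subunit of succinate dehydrogenase, starts on that strand within 1000 bp of the TIMM8B TSS, so this peak was shared by divergent genes.

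Among carriers, the start-codon core lay in the peaks of the pyrimidine nucleotide carrier SLC25A33, the aspartate/glutamate carriers SLC25A12 and SLC25A13, and SLC25A16. These sequences are shown because they carry the same letters at a wider range of distances, 227 bp downstream of the TSS in SLC25A33, 30 bp in SLC25A12, 142 bp in SLC25A13 and 148 bp in SLC25A16.
SLC25A33 (chr1:9539680-9539709, plus strand): gccggcgcggccATGGCGacgggcggccag
SLC25A12 (chr2:171894197-171894226, minus strand): tccgagcacagcATGGCGgtcaaggtgact
SLC25A13 (chr7:96321939-96321968, minus strand): ccggggcgaatcATGGCGgccgccaaggta
SLC25A16 (chr10:68527358-68527387, minus strand): accctggtcctgATGGCGgcggcgacggcc

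Peaks with the core at a start codon were stronger. Over all promoter peaks the median of the mean count over the 6 libraries was 123 with a start-codon core, 70.9 with a core elsewhere and 55.7 with no core. In translocases these medians were 216 (5 peaks), 32.9 (4 peaks) and 63.2 (11 peaks), and in carriers 114 (4 peaks), 69.8 (9 peaks) and 58.0 (30 peaks). Of 27 core matches in the members, 15 read on the gene strand and 19 lay within 250 bp downstream of the TSS. The letters CCGGAAG, a core of ETS family sites that cannot overlap a YY1 core, were found on either strand in 8 translocase peaks (40.0%, 95% exact Clopper-Pearson interval 19.1% to 64.0%) and 9 carrier peaks (20.9%, 10.0% to 36.0%), against 14.5% of all promoter peaks. TOMM6 alone held 3 of these matches. The letters GCATGCG, a core of NRF1 sites, were found in 1 translocase and 1 carrier peak, or 3.17% of members against 4.91% of all promoter peaks.

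**Figure D1:**
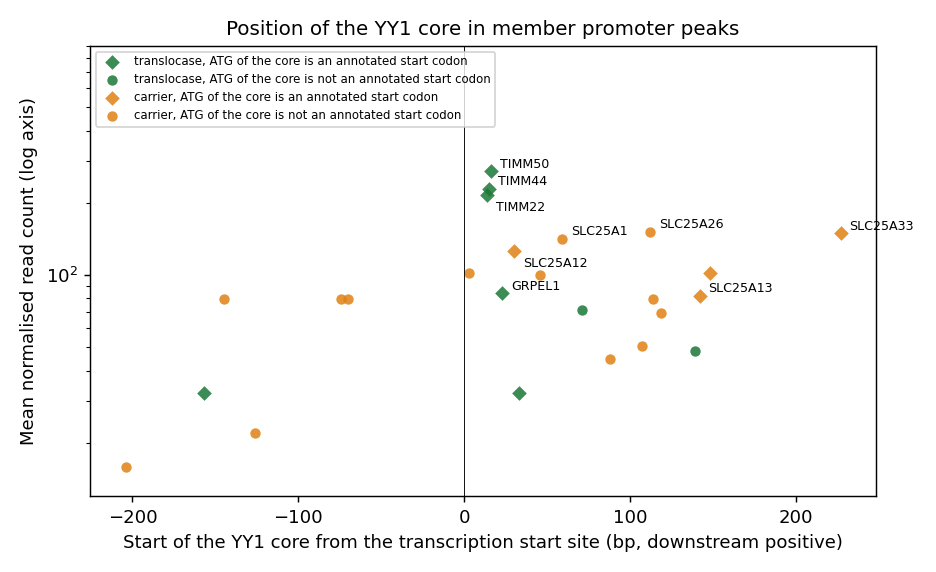
Start of each YY1 core match (letters ATGGCG, x axis, bp from the TSS) against the mean normalised read count of the peak over 6 libraries (y axis, log scale), with 1 point per match and only matches within 300 bp drawn. Diamonds mark matches whose ATG is an annotated start codon, and the 3 at the top, TIMM50, TIMM44 and TIMM22, sit 14 to 16 bp downstream of the TSS.

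YY1 signal at the translocases spanned mean counts from 7.65 at TIMM9 to 271 at TIMM50, with a median of 67.4, against 61.2 for all promoter peaks. The 3 leading peaks were TIMM subunits of the inner membrane. TIMM50, a receptor of the TIM23 complex (ENSG00000105197, chr19:39480697-39481097), had normalised counts of 296, 131 and 390.5 in the HttQ23 libraries and 302, 135 and 371 in the HttQ89 libraries, replicates 1 to 3 in this order here and below. Replicate 2 was the lowest in both groups, and the groups overlapped fully. The means were 272 ± 132 and 269 ± 121 (SD, n = 3 each; exact two-sided permutation p = 1.0, 0.1 being the smallest p that 3 against 3 libraries allow). TIMM44, which tethers the import motor to TIM23 (chr19:7943464-7943864), had 250.3, 159 and 355 in HttQ23 and 220.3, 101 and 289 in HttQ89. TIMM22, the channel of the carrier insertion complex (chr17:996927-997327), had 199, 95.6 and 350.2 in HttQ23 and 207, 144 and 299.6 in HttQ89. All of these 3 peaks stood above 92% of promoter peaks in mean count, and at each of them the difference between group means was smaller than the SD of either group.

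The TOM complex and its relatives had moderate signal. TOMM22-DT, the shared promoter with TOMM22, was the strongest (159, 169 and 280.2 in HttQ23 and 163, 117 and 205 in HttQ89). TOMM20L, a paralogue of the receptor TOMM20, had a mean of 155 ± 10.3 for HttQ23 and 125 ± 64.6 for HttQ89, TOMM34, a cytosolic co-chaperone of import, had 86.8 ± 19.5 and 63.9 ± 37.4, and the pore subunit TOMM40 had 67.2 ± 19.9 and 51.3 ± 29.1 (SD, n = 3 each). At these 3 promoters HttQ89 replicate 1 held the lowest value of all libraries. The receptors TOMM20 and TOMM70 read lower still, with 50.0 ± 22.0 and 46.7 ± 37.2 at TOMM20 and 49.4 ± 2.39 and 42.4 ± 20.1 at TOMM70 (SD, n = 3 each). At TOMM70 the HttQ23 values of 52.0, 48.9 and 47.3 lay close together, and HttQ89 values of 38.1, 24.7 and 64.3 stood on both sides of them.

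Among the TIM22 complex and the small TIMs, TIMM29, a subunit of TIM22, had 207, 122 and 202 in HttQ23 and 77.2, 76.1 and 234 in HttQ89. TIMM13, a chaperone, followed the same pattern, with HttQ89 replicates 1 and 2 low and replicate 3 high. TIMM9, a further small TIM, was at 0 in HttQ23 replicate 1 and in HttQ89 replicate 1, and its highest value was 14.8. TIMM17A, a TIM23 channel subunit, had 8.49, 18.1 and 62.2 in HttQ23 and 35.0, 13.8 and 30.8 in HttQ89, so that HttQ23 alone spanned more than the difference between groups. The GRPEL2 peak at its own TSS had 69.8 ± 20.8 and 56.6 ± 25.6 (SD, n = 3 each).

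**Figure D2:**
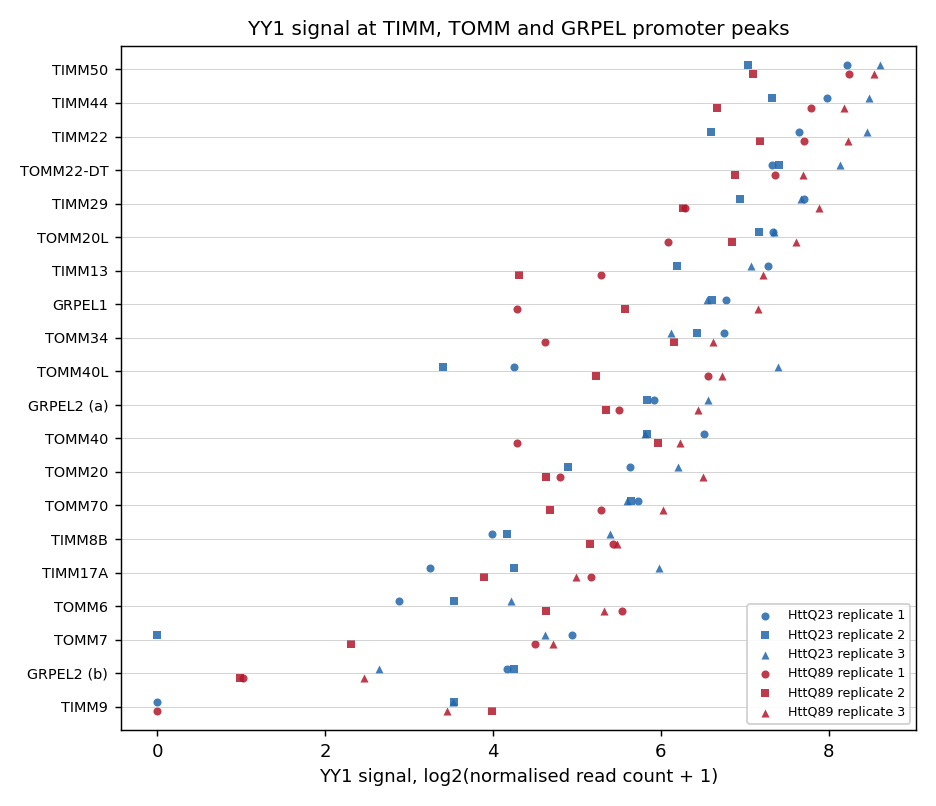
YY1 signal in each library, as log2(normalised read count + 1), at the 20 translocase promoter peaks, ordered by mean count over the 6 libraries. Blue marks HttQ23 and red HttQ89, with 1 symbol per replicate, and GRPEL2 (b) is the peak 1035 bp from the TSS. TIMM50, TIMM44 and TIMM22 lead, and the HttQ89 libraries lie apart from the HttQ23 libraries at GRPEL2 (b) and TOMM6.

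The carrier peaks spanned mean counts from 14.5 at SLC25A31 to 258 at SLC25A10, with a median of 71.0. SLC25A10, the dicarboxylate carrier (ENSG00000183048), had its leading peak at chr17:81711948-81712348, centred 88 bp upstream of the TSS, with no YY1 core. SLC25A10 had 386, 287 and 242 in HttQ23 against 118, 172 and 343 in HttQ89, so HttQ89 replicates 1 and 2 were below every HttQ23 library and replicate 3 was among them. Another peak listed under this gene had a mean of 17.1. SLC25A1, the citrate carrier, had 153, 182 and 190.0 in HttQ23 and 56.6, 82.0 and 187 in HttQ89. SLC25A21, which carries oxodicarboxylates, was weak in both groups (31.4 ± 4.70 and 39.5 ± 15.3, SD, n = 3 each).

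The ADP/ATP and phosphate carriers were not among the strongest sites. SLC25A4, the ADP/ATP carrier of heart and muscle, had 168, 143 and 56.0 in HttQ23 and 151, 97.8 and 137 in HttQ89. SLC25A5, its widely expressed relative, had 90.4 ± 27.1 and 67.1 ± 36.3, and SLC25A3, the phosphate carrier, had 65.9 ± 37.3 and 46.3 ± 30.4 (SD, n = 3 each). SLC25A31, known from testis, had 27.6, 22.3 and 12.3 in HttQ23 and 0, 18.8 and 6.34 in HttQ89, where the 0 allows a value of up to 3.09 (3 reads, counting error only). The ATP-Mg/phosphate carriers SLC25A24 and SLC25A25 had 153 ± 64.3 and 102 ± 58.0, and 107 ± 19.5 and 76.2 ± 38.3 (SD, n = 3 each). At SLC25A25 only HttQ89 replicate 1 stood apart, at 31.9, while replicates 2 and 3 read 98.8 and 97.8.

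Amino acid carriers had intermediate signal. SLC25A12, or aralar, the aspartate/glutamate carrier of brain and muscle, had 172, 106 and 160.2 in HttQ23 and 93.7, 52.4 and 175 in HttQ89. Its liver relative SLC25A13 had 95.8 ± 20.6 and 68.1 ± 36.8, and the ornithine carrier SLC25A15 had 163 ± 59.8 and 93.9 ± 30.3 (SD, n = 3 each; exact two-sided permutation p = 0.2). At SLC25A15 the HttQ23 values of 217, 172 and 98.9 overlapped the HttQ89 values of 66.9, 88.0 and 127 through the third replicates only.

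Carriers of cofactors, nucleotides and iron ranged from high to low. SLC25A26, which imports S-adenosylmethionine, was the second strongest carrier peak, with 133, 91.3 and 263 in HttQ23 and 140.0, 81.0 and 200.0 in HttQ89. SLC25A33 had 241, 159 and 160.2 in HttQ23 and 27.8, 91.9 and 217 in HttQ89, while SLC25A36, the other pyrimidine nucleotide carrier, had 53.0, 43.5 and 60.4 and then 64.9, 48.4 and 88.7. The 2 pyrimidine carriers thus differed in which HttQ89 library was lowest. The NAD carrier SLC25A51 had 116 ± 35.4 and 104 ± 61.5 and the folate carrier SLC25A32 had 52.7 ± 16.1 and 35.4 ± 27.3 (SD, n = 3 each). The iron carriers, or mitoferrins, had 116 ± 53.1 and 102 ± 51.7 at SLC25A28 and 88.2 ± 53.4 and 70.5 ± 50.6 at SLC25A37 (SD, n = 3 each). SLC25A39, required for mitochondrial glutathione, had 210.0, 99.8 and 168 in HttQ23 and 38.1, 46.5 and 235 in HttQ89, whose libraries held both the lowest and the highest of the 6 values.

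Other carrier peaks had overlapping groups. SLC25A16 had 107.7 ± 30.5 for HttQ23 and 96.3 ± 33.5 for HttQ89, and SLC25A30 and SLC25A14, relatives of the uncoupling proteins, had 97.7 ± 30.8 and 73.2 ± 31.0, and 47.4 ± 6.19 and 48.8 ± 25.3 (SD, n = 3 each). SLC25A42, which carries coenzyme A, had its leading peak at 83.3 ± 15.3 and 58.6 ± 38.6 and a weaker one at 13.5 ± 8.10 and 18.3 ± 18.3 (SD, n = 3 each). SLC25A20, the carnitine/acylcarnitine carrier of fatty acid oxidation, was weak, at 18.0, 24.4 and 27.1 in HttQ23 against 25.7, 29.7 and 40.7 in HttQ89. SLC25A45 had a mean of 38.9 over the 6 libraries and the ornithine carrier SLC25A2, whose peak was centred in TAF7, a mean of 21.9.

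**Figure D3:**
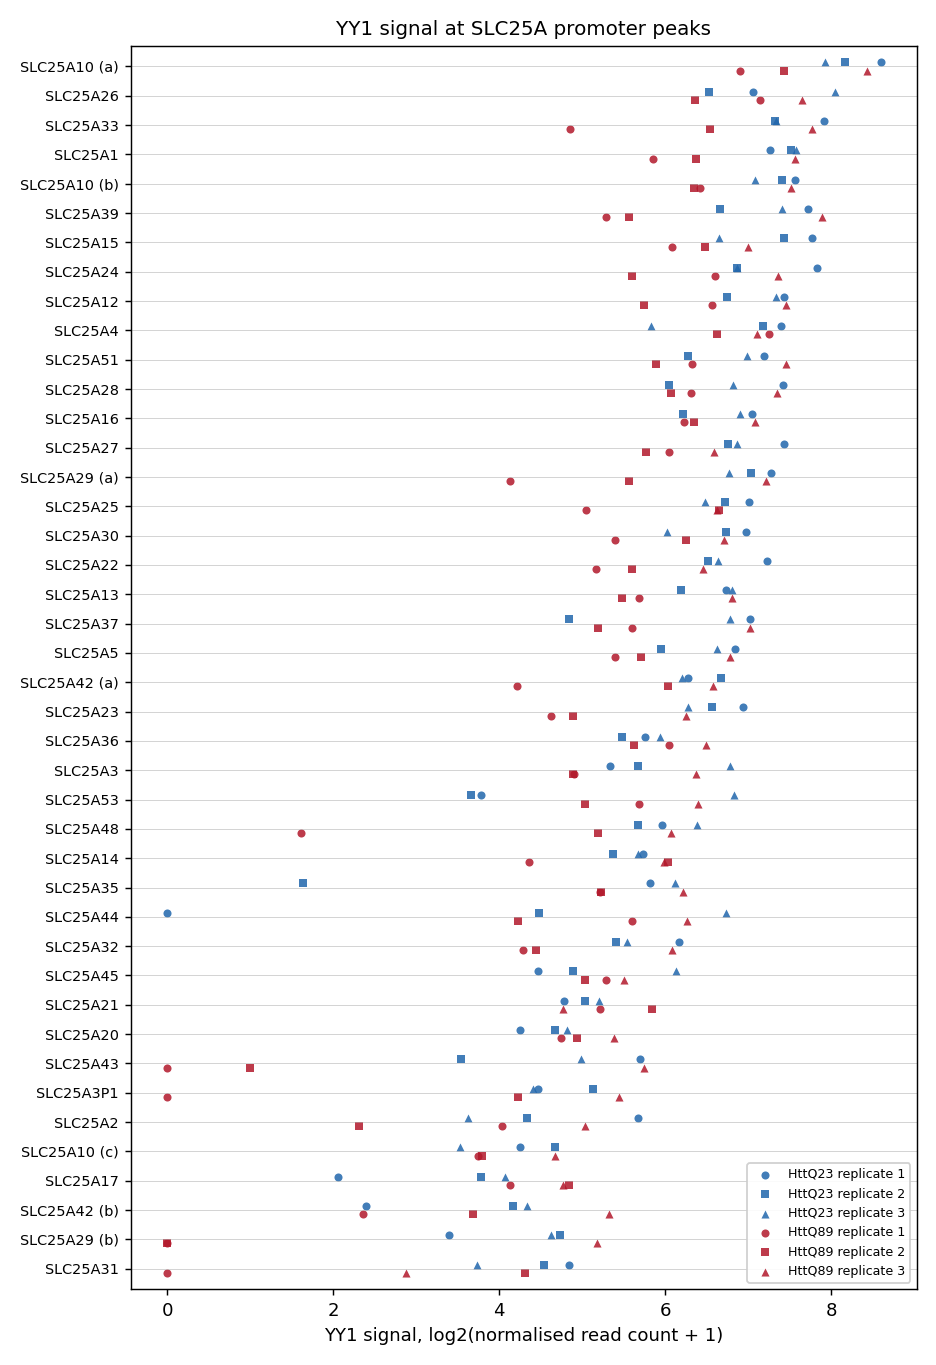
YY1 signal in each library, as log2(normalised read count + 1), at 42 of the 43 carrier promoter peaks, ordered by mean count over the 6 libraries. Blue marks HttQ23 and red HttQ89, with 1 symbol per replicate and letters in parentheses for the peaks of 1 gene. HttQ89 replicates 1 and 2 often lie left of the HttQ23 libraries and HttQ89 replicate 3 among or right of them.

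The comparison asked whether YY1 occupancy at these promoters depended on the length of the glutamine tract. It covered the 18 of 20 translocase peaks and 38 of 43 carrier peaks that were above 0 in each of the 6 libraries. Most zeros fell in HttQ89 replicate 1, so peaks without reads in that library are missing from the test. No member passed a limma adjusted p of 0.05, and 0 of 14698 peaks passed in all (0%). The lowest adjusted p among members was 0.818. At an unadjusted p of 0.05, 1 translocase and 2 carriers were lower in HttQ89 and 0 were higher, where 4.02% of all tested peaks were lower and 0.204% higher, and 4.02% and 0.178% of tested promoter peaks. On recovered reads, edgeR and DESeq2 also called 0 members after adjustment (0% of all tested peaks with either tool). At an unadjusted p of 0.05 edgeR had 1 member lower and 0 higher, against 0.796% and 0.122% of all tested peaks. DESeq2 had 2 members lower and 1 higher, against 1.03% and 0.136% of all tested peaks.

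Fold changes (HttQ89 minus HttQ23 on log2(count + 1), which understates the change of weak peaks) were negative at 12 of 18 translocase peaks and 29 of 38 carrier peaks, or 66.7% and 76.3%, where 85.5% of all 11802 tested promoter peaks were negative. The median log2 fold change was −0.33 for translocases and −0.52 for carriers, against −0.51 for all promoter peaks. By role, negative values were found at 5 of 7 tested TOM peaks, 4 of 6 TIM23 peaks, 2 of 4 peaks of TIM22 and the small TIMs, 5 of 6 ADP/ATP and phosphate carrier peaks, 4 of 5 di- and tricarboxylate carrier peaks and 7 of 10 cofactor and nucleotide carrier peaks. All 3 tested peaks were negative for aspartate/glutamate carriers, for the iron and glutathione group and for the relatives of uncoupling proteins. The TOM peaks counted here do not include TOMM22-DT, the promoter shared with TOMM22 (log2 −0.31). The 5 di- and tricarboxylate carrier peaks came from 3 genes. They include the peak listed under SLC25A10 that was centred in an MRPL12 exon (log2 −0.59). With each library centred on its median, which moves the median of all peaks from −0.50 to 0.04, 6 translocases and 19 carriers were negative and the medians were 0.20 and 0.01. The position of translocases relative to all promoters was 0.17 log2 units with all libraries. Leaving out HttQ23 replicate 1 made it −0.01, leaving out HttQ23 replicate 3 made it 0.44 and leaving out HttQ89 replicate 2 made it 0.30.

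By library, the shift was not shared by the HttQ89 replicates. Relative to the HttQ23 mean, taken on log2(count + 1), the median translocase peak stood at 0.714 times in HttQ89 replicate 1. It stood at 0.592 times in replicate 2 and 1.33 times in replicate 3. The median carrier peak stood at 0.515, 0.574 and 1.25 times, and the median promoter peak at 0.529, 0.595 and 1.22 times. Translocases therefore lay above the typical promoter in HttQ89 replicate 1, by 0.43 on the log2 scale, against −0.01 in replicate 2 and 0.12 in replicate 3. They also stood apart in HttQ23 replicate 3, where their median shift was 0.49 against −0.03 for all promoter peaks. In HttQ89 replicate 1, the 5 translocase peaks with a start-codon core stood at 1.10 times and the other 13 at 0.582 times. Over all tested promoter peaks these values were 0.728 times (1019 peaks) and 0.507 times (10783 peaks), so the direction was not particular to translocases. Its cause was not tested. HttQ89 replicate 1 held the lowest of the 6 values at 17 of 38 carriers and 4 of 18 translocases. The HttQ89 replicate 3 value was the highest of all at 11 carriers and 6 translocases. Relative sequencing depth was 0.953, 0.993 and 1.08 in HttQ89 replicates 1, 2 and 3 and between 0.924 and 1.12 in HttQ23. A difference in immunoprecipitation yield and one in YY1 occupancy cannot be told apart in these values.

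**Figure D4:**
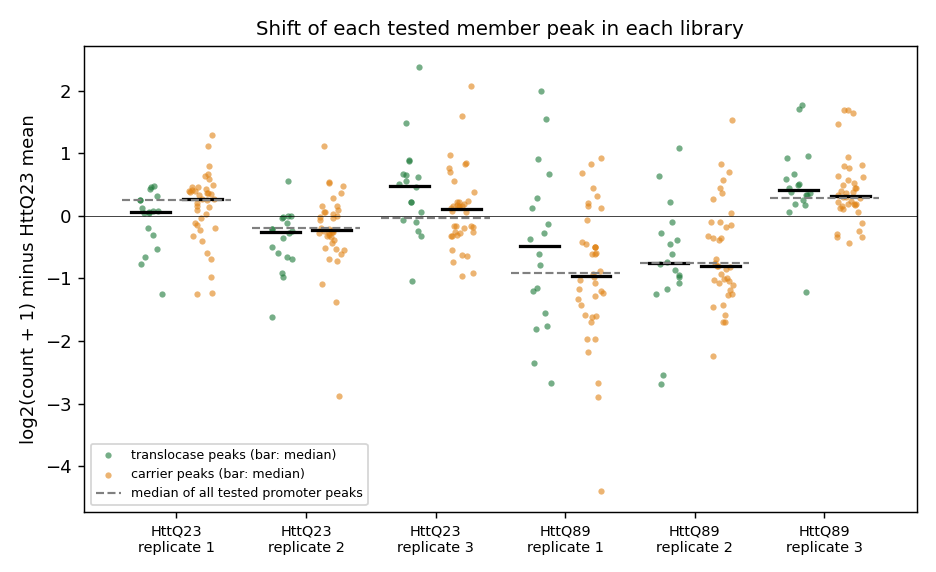
Shift of each tested member peak from its HttQ23 mean in each library, on log2(count + 1), with translocases in green and carriers in orange. Black bars are family medians and dashed lines the median of all tested promoter peaks, and translocases lie above that line by 0.43 in HttQ89 replicate 1.

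Peaks whose HttQ89 values all lay below the HttQ23 values numbered 1 of 18 translocases and 3 of 38 carriers, against 3.76% of tested promoter peaks. The translocase peak was GRPEL2 (chr5:149346654-149347054), in an intron of a nucleotide exchange factor of the matrix chaperone HSP70. It read 17.0, 18.1 and 5.25 in HttQ23 against 1.03, 0.990 and 4.53 in HttQ89, so only 3.21% of promoter peaks were weaker, and the third replicates differed by less than 1 count. The log2 fold change of GRPEL2 was −2.19 (SE 0.82, limma adjusted p = 0.818, exact two-sided permutation p = 0.1). The stronger GRPEL2 peak at the TSS had overlapping groups.

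The 3 carriers were SLC25A22, a glutamate carrier, SLC25A27, a relative of the uncoupling proteins also called UCP4, and SLC25A23, an ATP-Mg/phosphate carrier. SLC25A22 had 148, 90.3 and 98.1 in HttQ23 and 35.0, 47.4 and 86.9 in HttQ89, a log2 fold change of −1.05 (SE 0.66). SLC25A27 had 172, 107 and 116 in HttQ23 and 64.9, 53.4 and 95.0 in HttQ89, a log2 fold change of −0.89 (SE 0.62). SLC25A23 had 122, 93.5 and 76.2 in HttQ23 and 23.7, 28.7 and 75.1 in HttQ89, a log2 fold change of −1.34 (SE 0.70). At each the limma adjusted p was 0.818 and the exact two-sided permutation p was 0.1, and the HttQ89 value closest to the HttQ23 libraries was replicate 3.

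Among the 3 lowest limma p values of each family on the lower side, the peaks besides GRPEL2 were SLC25A48, SLC25A29, SLC25A33, TIMM13 and GRPEL1. SLC25A48 had 61.5, 49.9 and 82.3 in HttQ23 and 2.06, 35.6 and 66.1 in HttQ89 (log2 −1.71, SE 0.79). SLC25A29, a carrier of basic amino acids, had 154, 130 and 108 and then 16.5, 46.5 and 148 (log2 −1.39, SE 0.65). SLC25A33, with the values given above, had a log2 fold change of −1.14 (SE 0.59), and it was −0.37 without HttQ89 replicate 1. TIMM13 had 154, 72.2 and 133 and then 38.1, 18.8 and 148 (log2 −1.24, SE 0.66), and GRPEL1, the main nucleotide exchange factor of the import motor, had 108, 96.6 and 92.8 and then 18.5, 46.5 and 141 (log2 −0.97, SE 0.67). At all 5 the limma adjusted p was 0.818 and HttQ89 replicate 1 lay below every HttQ23 library while replicate 3 lay within or above the HttQ23 range. Without HttQ89 replicate 3, limma called 514 of 14698 peaks (3.50%), all lower, with TIMM13, SLC25A29, SLC25A33 and SLC25A39 among them (adjusted p between 0.0432 and 0.0476). At these 4 peaks HttQ89 replicate 3 itself read between 1.13 and 1.48 times the arithmetic mean of the HttQ23 counts.

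Peaks whose HttQ89 values all lay above the HttQ23 values were TOMM6 and SLC25A17, where 0.339% of tested promoter peaks showed this. TOMM6, a small subunit that stabilises the TOM complex (chr6:41787480-41787880), had 6.36, 10.6 and 17.5 in HttQ23 and 45.3, 23.7 and 38.9 in HttQ89, a log2 fold change of 1.62 (SE 0.85, limma adjusted p = 0.818, exact two-sided permutation p = 0.1). SLC25A17, a cofactor carrier of peroxisomes (chr22:40819076-40819476), had 3.18, 12.7 and 15.8 in HttQ23 and 16.5, 27.7 and 26.2 in HttQ89, a log2 fold change of 1.28 (SE 0.86, limma adjusted p = 0.818, exact two-sided permutation p = 0.1). At SLC25A17 the groups were parted only by 16.47 in HttQ89 replicate 1 against 15.76 in HttQ23 replicate 3. As 1 read has the value 1.03 in the former and 0.876 in the latter, that order rests on the depth scaling. TOMM6 and SLC25A17 were weak peaks with means of 23.7 and 17.0. Both held the ETS letters, found in 27.0% of members and 14.5% of all promoter peaks. Neither held the YY1 core, which most peaks lacked (present in 34.9% of members and 27.0% of all promoter peaks). A link of these letters to the direction was not tested. TIMM8B, a small TIM, also had a positive fold change, with 14.8, 17.0 and 41.1 in HttQ23 and 42.2, 34.6 and 43.4 in HttQ89 (log2 0.84, SE 0.81, limma adjusted p = 0.818), where the groups overlapped through HttQ23 replicate 3.

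At TOMM40L, SLC25A53 and SLC25A35 the fold change was positive while 1 or 2 HttQ23 libraries read far below the others. TOMM40L, a paralogue of the TOMM40 pore, had 18.0, 9.56 and 167 in HttQ23 and 93.7, 36.6 and 105 in HttQ89 (log2 1.16, SE 0.74). SLC25A53 had 12.7, 11.7 and 113 in HttQ23 and 50.5, 31.6 and 83.3 in HttQ89 (log2 0.94, SE 0.78), and SLC25A35 had 55.1, 2.12 and 68.3 and then 36.0, 36.6 and 73.3 (log2 1.03, SE 0.80). In linear means TOMM40L was 64.9 ± 88.7 and 78.4 ± 36.7 and SLC25A35 was 41.9 ± 35.0 and 48.6 ± 21.4 (SD, n = 3 each), so the HttQ23 spread exceeded the difference. The fold change of SLC25A35 turned to −0.41 without HttQ23 replicate 2.

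**Figure D5:**
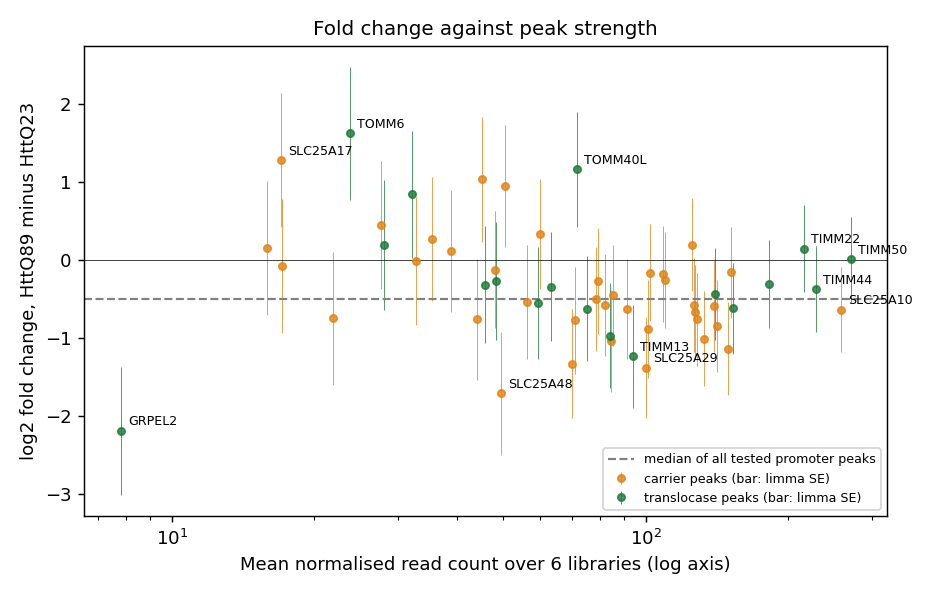
Log2 fold change (HttQ89 minus HttQ23) of the 56 tested member peaks against their mean normalised read count over 6 libraries (log axis), with limma standard errors as bars. The dashed line is the median of all tested promoter peaks, −0.51, and the strong peaks TIMM50, TIMM44 and TIMM22 lie above it, while TOMM6 and SLC25A17 are the highest of the weak peaks.

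Of the 7 members that were not tested, 5 were at 0 in 1 library, and TIMM9 and the weak SLC25A29 peak in 2. SLC25A43 had 50.9, 10.6 and 30.6 in HttQ23 and 0, 0.990 and 52.5 in HttQ89, and the pseudogene SLC25A3P1 had 21.2, 34.0 and 20.1 and then 0, 17.8 and 42.5. SLC25A44, a carrier of branched-chain amino acids, had 0, 21.2 and 105 in HttQ23 and 47.4, 17.8 and 76.0 in HttQ89, so its zero was in HttQ23. TOMM7, a small TOM subunit, was at 0 in HttQ23 replicate 2 and read 29.7 and 23.6 in the other HttQ23 libraries and 21.6, 3.95 and 25.3 in HttQ89.

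Of 25 listed import genes outside the naming rule, 19 had a promoter peak and 18 peaks were tested. Their median log2 fold change was −0.40, with 14 negative and 4 positive. DNLZ, an escort protein of the matrix HSP70, was far stronger than any member, with means of 2429 ± 564 for HttQ23 and 1786 ± 691 for HttQ89 (SD, n = 3 each). The outer membrane assembly factors MTX3 and SAMM50 had 586 ± 156 and 498 ± 188, and 297 ± 73.8 and 236 ± 103 (SD, n = 3 each). None of these 18 passed an unadjusted limma p of 0.05. Of 15 other mitochondrial membrane transporters, 11 peaks were tested, 10 of them negative, with a median of −0.47. LETM1, an inner membrane ion exchanger, had 304 ± 82.7 and 160.2 ± 119 (SD, n = 3 each; log2 −1.12, limma adjusted p = 0.818) and was the 1 peak lower at an unadjusted p of 0.05.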

How the data were processed

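Paired reads of 150 nt came from YY1 and input chromatin. By the processing notes and methods of the study, the authors used FastQC 0.11.8, cutadapt 3.7, Bowtie2 2.4.1 on GRCh38.p14, bedtools 2.29.2 for blacklisted regions, MACS3 3.0.1 with input as control, and ChIPseeker 1.38.0 for annotation. Pooled or separate peak calling is not given in these sources. The signal that the authors deposited is the number of reads per peak, normalised to depth with DiffBind, so that differences in immunoprecipitation yield remain in it. The 3 input libraries are not used here. Dividing by the step of each library gave whole reads for 100% of values within 0.1 reads. Zeros made up between 2.99% and 22.5% of a library's values. Distances to the TSS of all 23002 peaks matched GENCODE v44 within 1 bp.

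The test followed the study in using only peaks with reads in every library. It was limma 3.58.1 (R 4.3.3, trend, two-sided) on log2(value + 1), with Benjamini-Hochberg adjustment over 14698 peaks. The estimated variance depended on peak strength alone, so a standard error does not reflect the spread of a single peak. Exact permutation tests compared single peaks, and their p-values reflect only the spread of these libraries. Recovered reads were tested with edgeR 4.0.16 and DESeq2 1.42.0, using the depth scaling of the authors. The other alternatives were pseudocounts of 0.5 and 5, no filter, a mean of at least 20, median centring, quantile normalisation, TMM scaling, a replicate block, a promoter window of 1000 bp, the strongest peak per gene, and each library left out. The limma fit was also run on simulated reads with known fold changes. Its recovery rates are not given here, so they cannot be used to weigh the absence of calls.

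The members and lists were chosen with earlier results of these data known. Named peaks were, per family, the 8 strongest, those whose groups did not overlap, the 3 lowest limma p per direction, members not tested but with a group mean of at least 20, and members of functional subgroups, and the text gives part of these. A carrier peak and some sequences are not reported here.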

Additional observations from a re-analysis of the deposited data

How the results depend on the processing

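After adjustment 0 peaks were called with limma and under the other scalings, filters, pseudocounts and tools, except 1 with the replicate block. Leaving out 1 library gave between 0 and 514 calls, and the 514 came without HttQ89 replicate 3. Deviations of same-numbered libraries correlated at 0.0414, 0.386 and 0.146, and those of differently numbered libraries between −0.29 and 0.129. For each HttQ23 replicate the same-numbered HttQ89 library correlated highest, so these values do not exclude pairing. The main fit left the numbers unpaired, as the test of the study did, and the replicate block used them as pairs. Unadjusted limma p-values under 0.05 gave 591 lower and 30 higher peaks, against 633 and 52 with the block, 94 and 182 on centred medians, 133 and 136 on quantiles, 110 and 132 on TMM factors, 362 and 21 unfiltered, 444 and 1 with means of at least 20, 117 and 18 in edgeR and 151 and 20 in DESeq2. With a library left out, the lower peaks numbered between 140 and 4516 and the higher peaks between 14 and 157. The translocase median log2 fold change then lay between −0.69 and −0.05 and the carrier median between −0.90 and −0.18. Centred medians, quantiles and TMM factors, which equalise libraries by construction, gave 0.20, 0.14 and 0.15 for translocases (negative at 6, 5 and 6 of 18) and 0.01, −0.01 and −0.04 for carriers (negative at 19, 19 and 20 of 38). Of 238 values of the 15 peaks given with a fold change, 234 kept direction and side of the threshold. None of the 15 passed it in the main fit, so this tally says little about size. In edgeR the log2 fold change was 0.27 at TOMM40L, 0.26 at SLC25A53 and 0.21 at SLC25A35, against 1.16, 0.94 and 1.03 in limma. SLC25A48 moved from −1.71 to −0.375 without HttQ89 replicate 1. TIMM13 (−2.05), SLC25A29 (−2.17) and SLC25A33 (−1.83) passed without HttQ89 replicate 3. SLC25A35 lay between −0.41 and 1.83 with a library left out and was negative only without HttQ23 replicate 2. That library read 2.12 at SLC25A35, against 55.15 and 68.29 in HttQ23 replicates 1 and 3. Why it read low was not tested. Weak peaks are limited by depth, since 1.03 is the value of 1 read in HttQ89 replicate 1.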
